A study of Homo sapiens with 6 samples.

Results

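The genes described here are 53 glycoproteins, proteoglycans and remodelling enzymes of the extracellular matrix, leaving the collagens aside, taken by gene symbol from a table of 60675 gene identifiers. They were measured by RNA-seq of A2058, an established line of metastatic melanoma cells, in 3 wells treated with vitamin C and 3 control wells. The vitamin C wells were labelled with 100 µM for 48 h, while a protocol text given for the samples states 50 µM sodium ascorbate. All wells shared the cell line and a culture medium that contained no vitamin C itself. Each well gave 1 library. The wells came from a single line, so p-values measure the spread between cultures of that line.

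Cells build the extracellular matrix from collagens, from glycoproteins that link fibres to cells, and from proteoglycans, which are proteins carrying long sulfated sugar chains. Melanoma cells secrete many of these proteins themselves, and fibronectin, tenascin-C, osteopontin, versican and the cell-surface proteoglycan CSPG4 are well known from this tumour. Vitamin C is the cofactor of the hydroxylases that mature collagen and also of the TET enzymes, which oxidize methylated cytosine at CpG, that is, at a C followed by a G. The question of the experiment was how vitamin C shifts the transcriptome of melanoma cells.

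Both directions of change, and both CpG-rich and CpG-poor promoters, were found among the matrix genes, and 4 promoter stretches are printed to show this. These lie before the RefSeq start of FBN2 and POSTN, which were higher with vitamin C, and of TGFBI and SPP1, which were lower, at 0 to 93 bases from it and outside the exons of GENCODE 29. In GENCODE 29 the FBN2 gene begins further upstream, at 128659185, so the FBN2 stretch lies inside the gene as annotated there. Sequences are from RefSeq on GRCh38.p14, written 5′ to 3′ along the gene's own strand, with each CG in capitals. FBN2 is at chr5:128538246-128538395 on the minus strand and holds 21 CG, POSTN at chr13:37598845-37598994 on the minus strand holds 1, TGFBI at chr5:136028745-136028894 on the plus strand holds 9, and SPP1 at chr4:87975500-87975649 on the plus strand holds 2.
FBN2: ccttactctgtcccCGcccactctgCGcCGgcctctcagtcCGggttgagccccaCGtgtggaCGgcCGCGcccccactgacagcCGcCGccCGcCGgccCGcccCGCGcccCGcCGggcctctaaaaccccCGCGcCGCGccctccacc
POSTN: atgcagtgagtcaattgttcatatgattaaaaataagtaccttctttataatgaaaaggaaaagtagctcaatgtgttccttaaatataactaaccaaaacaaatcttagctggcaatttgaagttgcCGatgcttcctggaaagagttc
TGFBI: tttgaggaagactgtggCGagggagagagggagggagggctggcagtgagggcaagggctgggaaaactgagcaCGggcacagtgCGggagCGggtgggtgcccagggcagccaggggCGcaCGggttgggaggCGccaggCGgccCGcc
SPP1: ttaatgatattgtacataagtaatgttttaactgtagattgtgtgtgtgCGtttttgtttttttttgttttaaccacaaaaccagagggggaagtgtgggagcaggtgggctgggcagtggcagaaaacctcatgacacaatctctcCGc
Of the 53 genes, 36 were matched to a RefSeq promoter. In the 150 bases before their RefSeq start, these held a median of 11.5 CG (range 0 to 23), beside a median of 7 (0 to 40) over all 24882 promoters. That larger set was not filtered by gene class, whereas all the matrix genes are protein coding. The 6 matched genes that were higher with vitamin C had a median of 8 CG (1 to 21) and the 5 that were lower a median of 16 (1 to 22), so the ranges covered each other. These counts are not those of the printed stretches, some of which lie further from the start. In the 150 bases directly before it, TGFBI held 16 CG and SPP1 held 1. The letters TATAAA, searched on both strands, were found in the window of 5 of the 36 genes (13.9%), beside 7.28% of all promoters. Such counts describe the letters of the reference genome only, and methylation is not analysed here.

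Matrix genes were changed by vitamin C in both directions in nearly equal numbers. A total of 37 of the 53 genes had enough reads to test, and 17 of them (45.9%) passed edgeR's quasi-likelihood test at an adjusted p under 0.05, 9 higher and 8 lower. Over all 16353 genes tested, 11.2% passed, 6.09% as higher and 5.09% as lower. Among genes averaging at least 10 CPM (read counts scaled to a common library total), 13 of 27 matrix genes (48.1%) passed, beside 14.3% of all 9066 genes at that level, and 13.4% of all protein-coding genes tested passed. The median log2 fold change, taken as vitamin C over control, was -0.08 for the matrix genes and -0.00 for all genes, while the median of its size, whatever the sign, was 0.21 and 0.13. The 3 libraries of one group lay wholly above or below the other 3 for 23 of the 37 genes, 11 higher and 12 lower, beside 30.6% of all genes tested. DESeq2 also called 15 of the 17 in the same direction, where both tools called 9.88% of all genes. The 53 genes were chosen with earlier results of these data known, so the gaps between these shares describe the list and test nothing.

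**Figure D1:**
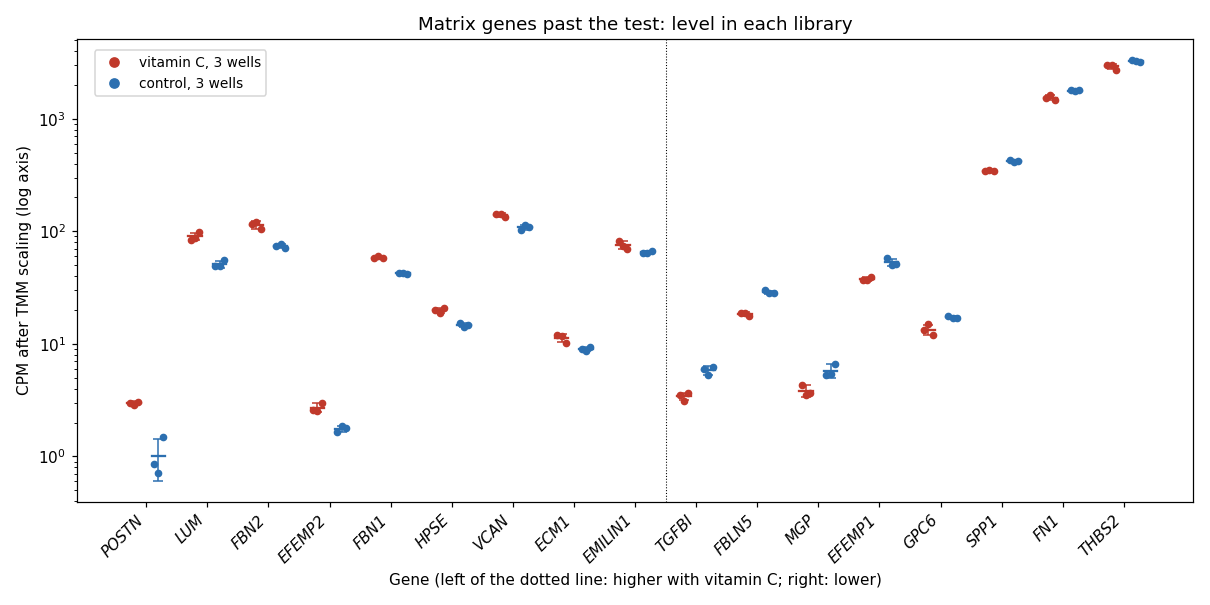
Level of the 17 matrix genes past the test in each library, in CPM after TMM scaling on a log axis, with 3 vitamin C wells in red at the left and 3 control wells in blue at the right of each gene. Points are libraries, and bars give the mean and SD. POSTN is the gene with the widest gap, and THBS2 the gene with the most reads.

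Summed over all 53 genes, matrix transcripts made up 7306 to 7806 CPM in vitamin C wells, against 8162 to 8393 CPM in control wells, so the sums did not overlap. THBS2, FN1 and TNC alone gave 70.3 to 71.5% of the sum in vitamin C wells and 73.4 to 74.0% of it in control wells. Without these, the remaining 50 genes summed to 2189, 2228 and 2167 CPM in vitamin C wells, against 2229, 2123 and 2131 CPM in control wells, and the groups overlapped. The gap between the sums thus lay in the most abundant adhesive glycoproteins.

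**Figure D2:**
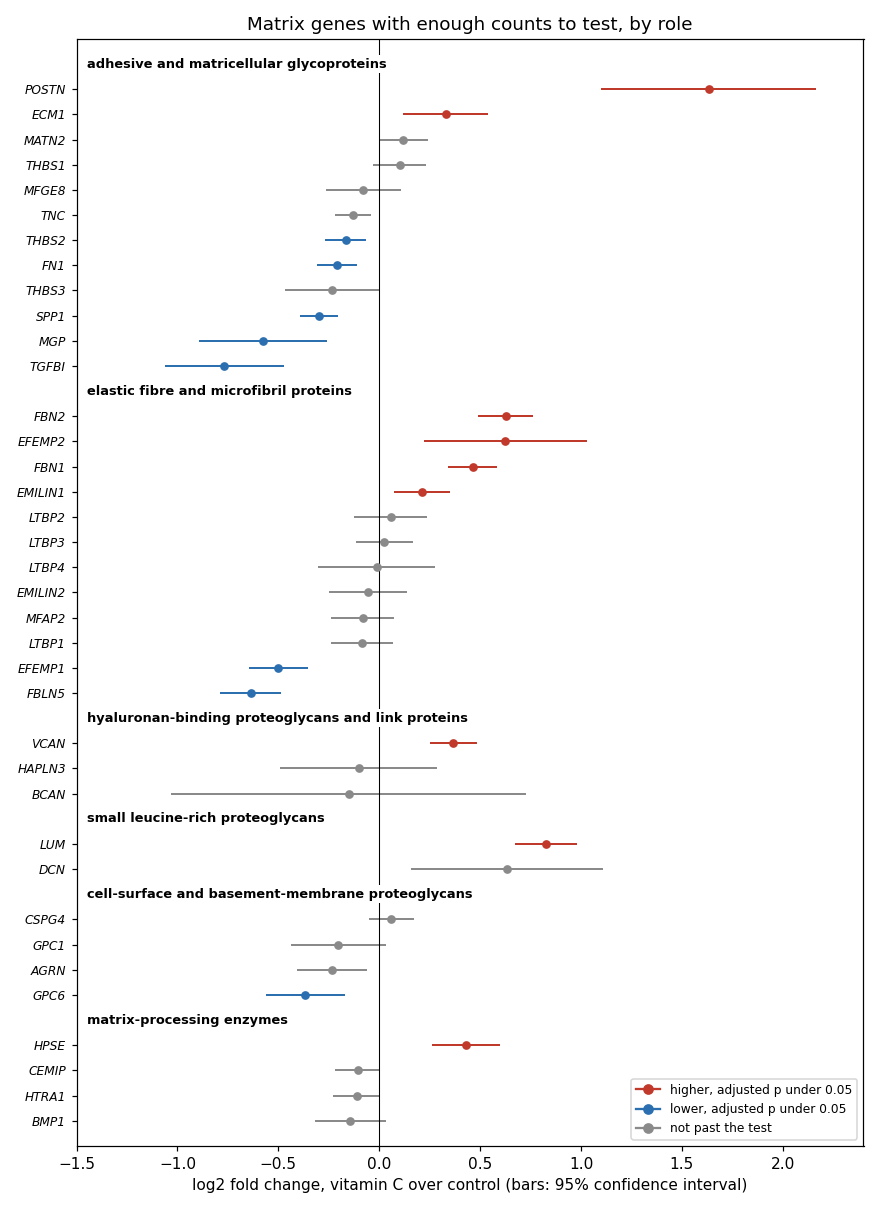
Log2 fold change (vitamin C against control) with its 95% confidence interval for the 37 matrix genes with enough counts to test, grouped by role. Red genes were higher and blue genes lower at an adjusted p under 0.05, and grey genes did not pass. Of the adhesive glycoproteins, 8 of 12 lie to the left of 0, called or not, beside 8322 of all 16353 genes tested. The elastic fibre proteins split to both sides.

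The adhesive and matricellular glycoproteins, which cells bind through integrins and other receptors, were called lower more often than higher with all 6 libraries. Of 14 genes, 12 were tested and 7 passed (58.3%, beside 11.2% of all genes tested). Of these, 5 were lower (THBS2, FN1, SPP1, MGP and TGFBI) and 2 were higher (POSTN and ECM1). SPP1, TGFBI and POSTN kept their call in every fit that left out 1 library, and the others did not. THBS2 (chr6:169215780-169254044), the anti-angiogenic thrombospondin-2, had 3014, 3007 and 2713 CPM in vitamin C wells, against 3328, 3260 and 3216 CPM in control wells. Its level per kb of exon was the highest of the 37 genes at 454 CPM per kb with vitamin C and 509.7 in control, and its groups did not overlap. The log2 fold change was -0.17 (SE 0.0457, adjusted p = 0.032), a fall of 10.9%. FN1 (chr2:215360440-215436172), fibronectin, the main adhesive glycoprotein of the matrix, had 1529.8, 1626 and 1468 CPM in vitamin C wells, against 1787, 1765 and 1788 CPM in control wells. All vitamin C libraries were below all control libraries, with a log2 fold change of -0.21 (SE 0.0439, adjusted p = 0.0082). These are small changes at high counts, and they depended on single libraries: THBS2 lost its call without any 1 of the control libraries (adjusted p up to 0.12), and FN1 had an adjusted p of 0.053 without control replicate 3.

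SPP1 (chr4:87975650-87983426) encodes osteopontin, a secreted phosphoprotein that binds integrins and CD44. It had 344, 353 and 339.7 CPM in vitamin C wells, against 434, 415 and 425 CPM in control wells, again without overlap. The log2 fold change was -0.30 (SE 0.0418, adjusted p = 0.00048), and the call held without any 1 library. TGFBI (chr5:136028895-136063818), a TGF-beta-induced adhesion protein, had 3.52, 3.13 and 3.63 CPM with vitamin C, against 5.93, 5.29 and 6.25 CPM in control. The fall by 0.77 on the log2 scale (SE 0.135, adjusted p = 0.0025) separated all libraries of the groups. MGP (chr12:14881181-14885926), the matrix Gla protein that inhibits calcification, had 4.34, 3.53 and 3.63 CPM in treated wells, against 5.28, 5.40 and 6.68 CPM in control wells. Its groups were apart too, with a log2 fold change of -0.58 (SE 0.145, adjusted p = 0.022), although the call was lost without vitamin C replicate 2 or control replicate 3 (adjusted p up to 0.094).

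POSTN (chr13:37562583-37598844), periostin, a matricellular relative of TGFBI that also binds integrins, moved the other way. Its counts were 77, 94 and 64 reads in vitamin C wells, against 36, 19 and 24 reads in control wells, or 3.01, 2.86 and 3.06 CPM against 0.864, 0.707 and 1.49 CPM. Every treated library was above every control library by a wide margin, and the log2 fold change of 1.63 (95% CI 1.10 to 2.16, adjusted p = 0.00079) was the largest of the 37 genes. Its level stayed low, at 0.545 CPM per kb with vitamin C and 0.186 in control. The related TGFBI stood at 0.439 and 0.746 CPM per kb, so per kb the order of this pair differed between the groups. That order rests on the division by all annotated exon bases. In CPM, TGFBI was above POSTN in every library of both groups. ECM1 (chr1:150508062-150513789), an extracellular matrix protein of skin, had 12.0, 11.7 and 10.2 CPM with vitamin C, against 9.03, 8.71 and 9.47 CPM in control. The groups did not overlap, and the log2 fold change was 0.33 (SE 0.0958, adjusted p = 0.042). DESeq2 gave ECM1 an adjusted p of 0.077, and the call held in 1 of the 6 fits that left out a library, that without vitamin C replicate 3 (adjusted p up to 0.14 in the others).

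The other 5 of the 12 tested adhesive genes did not pass. TNC, tenascin-C, a large matricellular protein of wounds and tumours, had 932, 945 and 959 CPM in vitamin C wells, against 1049, 1014 and 1035 CPM in control wells. Although these did not overlap, the log2 fold change of -0.13 (SE 0.0392) had an adjusted p of 0.052, and DESeq2 gave 0.036. THBS1, thrombospondin-1, had 293, 279.6 and 290.3 CPM with vitamin C, against 295, 259 and 249 CPM in control, with overlap and an adjusted p of 0.31. The interval of its log2 fold change, -0.02 to 0.23, lay above the value of THBS2, but the difference between the genes was not tested. MATN2, matrilin-2, a filament-forming adaptor protein, had 74.9, 74.4 and 77.9 CPM in treated wells, against 72.9, 68.0 and 67.7 CPM in control wells, apart from each other but with an adjusted p of 0.17. THBS3 averaged 8.14 ± 0.780 CPM with vitamin C and 9.60 ± 0.624 CPM in control (SD, n = 3 each), with an adjusted p from edgeR of 0.19. Of the THBS3 exons, 25.4% lie over genes on the opposite strand, MTX1 and AC234582.1, and whether the counting told their reads apart is not known. MFGE8, a bridging protein for the uptake of dying cells, gave an adjusted p of 0.61.

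**Figure D3:**
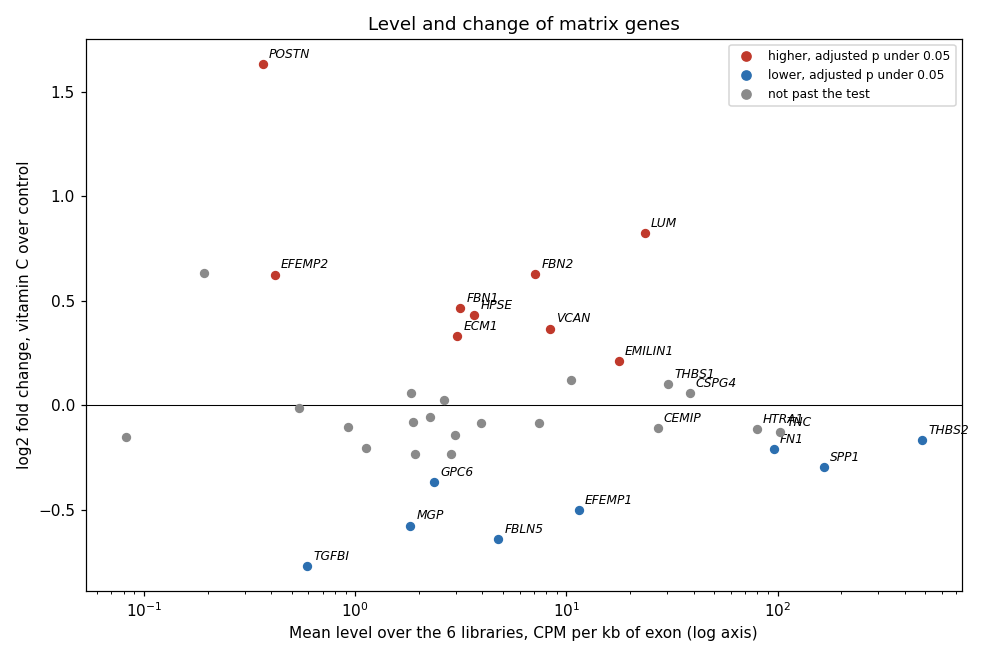
Log2 fold change between vitamin C and control (positive: higher with vitamin C) against the mean level over the 6 libraries in CPM per kb of exon on a log axis, for the 37 matrix genes tested. Red genes were higher, blue genes lower and grey genes did not pass the test. The genes of highest level (THBS2, SPP1, TNC and FN1) lie below 0, while the 2 genes furthest above 0, POSTN and LUM, lie at lower levels.

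The elastic fibre and microfibril proteins changed in both directions. Of 16 genes, 12 were tested and 6 passed (50%, beside 11.2% of all genes tested). Of these, 4 were higher (FBN2, FBN1, EFEMP2 and EMILIN1) and 2 were lower (FBLN5 and EFEMP1). Fibrillins assemble into the microfibrils that scaffold elastin and store latent growth factors, and both were higher. FBN2 (chr5:128257909-128659185), fibrillin-2, had 116, 121 and 105 CPM in vitamin C wells, against 73.4, 77.3 and 70.9 CPM in control wells, or 8.64 CPM per kb with vitamin C and 5.59 in control. FBN1 (chr15:48408306-48645849), fibrillin-1, the gene mutated in Marfan syndrome, had 57.6, 59.8 and 57.6 CPM with vitamin C, against 42.2, 43.0 and 41.8 CPM in control. Neither gene's groups overlapped, and the control FBN1 libraries agreed within 0.603 CPM (SD). Log2 fold changes were 0.63 for FBN2 (SE 0.0608, adjusted p = 2.3e-05) and 0.46 for FBN1 (SE 0.0539, adjusted p = 0.00011). FBN2 stood above FBN1 per kb in both groups, and both calls held without any 1 library.

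Short fibulins, which guide elastin onto microfibrils, did not move together. FBLN5 (chr14:91869412-91947987), fibulin-5, which binds elastin, integrins and crosslinking enzymes, had 18.98, 18.9 and 17.7 CPM in treated wells, against 29.9, 28.5 and 28.0 CPM in control wells. EFEMP1 (chr2:55865967-55924139), fibulin-3, had 36.6, 37.0 and 39.1 CPM with vitamin C, against 57.5, 50.2 and 51.1 CPM in control. For both, each vitamin C library was well below each control library. FBLN5 fell by 0.64 (SE 0.0683, adjusted p = 5.6e-05) and EFEMP1 by 0.50 (SE 0.0663, adjusted p = 0.00029) on the log2 scale. EFEMP2 (chr11:65866441-65873592), fibulin-4, had only 66, 84 and 63 reads in vitamin C wells, against 68, 50 and 29 reads in control wells, or 2.58, 2.55 and 3.01 CPM against 1.63, 1.86 and 1.79 CPM. The groups lay apart in CPM, and the log2 fold change was 0.63 (SE 0.185, adjusted p = 0.045). That call was lost whichever library was left out (adjusted p up to 0.15), and DESeq2 gave an adjusted p of 0.099.

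EMILIN1 (chr2:27078567-27086408), a glycoprotein at the interface of elastin and microfibrils, had 81.7, 74.7 and 69.5 CPM in vitamin C wells, against 64.2, 64.0 and 67.3 CPM in control wells. The groups did not overlap, but the lowest treated library was close to the highest control library. Its log2 fold change was 0.21 (SE 0.0624, adjusted p = 0.044), and the call was lost in 5 of the 6 fits that left out 1 library, all but that without vitamin C replicate 3. EMILIN2 (adjusted p = 0.75), the microfibril protein MFAP2 (0.52) and the latent TGF-beta binding proteins LTBP1 (0.48), LTBP2 (0.72), LTBP3 (0.85) and LTBP4 (0.97) did not pass edgeR's test. Among the LTBP genes, which hold TGF-beta in an inactive complex on microfibrils, log2 fold changes lay between -0.09 and 0.06. The widest of their 95% intervals, that of LTBP4, was -0.30 to 0.27.

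The large hyaluronan-binding proteoglycans were represented by VCAN. Versican, a chondroitin sulfate proteoglycan of loose and tumour matrix (chr5:83471465-83582303), had 144, 142 and 134 CPM in treated wells, against 103, 114 and 109 CPM in control wells. All treated libraries were above all control libraries, and the log2 fold change was 0.37 (SE 0.0517, adjusted p = 0.00048). HAPLN1 (chr5:83637805-83721613), a link protein that fastens versican and aggrecan to hyaluronan, lies next to VCAN on chromosome 5. It was not tested, with 4, 5 and 13 reads in vitamin C wells, against 10, 3 and 4 reads in control wells. Its relative HAPLN3 averaged 3.14 ± 0.588 CPM with vitamin C and 3.36 ± 0.418 CPM in control (SD, n = 3 each; adjusted p from edgeR = 0.78). BCAN, the brain proteoglycan brevican, had 6 to 15 reads in vitamin C libraries and 9 to 17 in control libraries, and the interval of its log2 fold change was wide, at -1.03 to 0.72.

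Small leucine-rich proteoglycans bind collagen fibrils and set their diameter and spacing. LUM (chr12:91102629-91111831), lumican, had 84.5, 87.8 and 98.4 CPM in vitamin C wells, against 49.1, 48.9 and 55.2 CPM in control wells. The groups were far apart, and LUM had the smallest adjusted p of the 37 genes (6.2e-06), at 30.0 CPM per kb with vitamin C and 17.0 in control. DCN (chr12:91140484-91183123), decorin, its neighbour on the same strand, had 2.90, 2.55 and 3.68 CPM in treated wells, against 1.90, 2.42 and 1.36 CPM in control wells. The DCN groups did not overlap either, but its log2 fold change of 0.63 (SE 0.220) had an adjusted p of 0.083 and passed under none of the 14 alternatives. The remaining 5 of 7 genes were not tested, each with at most 11 reads in any library: biglycan (BGN), PRELP, fibromodulin (FMOD), OGN and ASPN.

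Among the proteoglycans of the cell surface and basement membrane, only GPC6 passed the test, of 4 tested (25%, beside 11.2% of all genes tested). GPC6 (chr13:93226842-94407401), a glypican that carries heparan sulfate on a lipid anchor, had 13.2, 14.9 and 11.9 CPM in vitamin C wells, against 17.8, 17.1 and 16.8 CPM in control wells. All treated libraries were lower, with a log2 fold change of -0.37 (SE 0.0890, adjusted p = 0.018), and leaving out any control library took the adjusted p past the threshold, to 0.08 at most. Another gene covers 7.36% of its exons on the opposite strand. CSPG4, the melanoma-associated chondroitin sulfate proteoglycan, had 323, 340.5 and 309 CPM with vitamin C, against 324, 306 and 303 CPM in control. Its groups overlapped, and the 95% interval of its log2 fold change was -0.05 to 0.17 (adjusted p = 0.49). Pseudogene copies of CSPG4 are known, and their part in its count was not tested. AGRN, agrin, a heparan sulfate proteoglycan of basement membranes, averaged 28.1 ± 1.33 CPM in treated wells and 32.8 ± 3.34 CPM in control wells (SD, n = 3 each), without overlap, at an adjusted p from edgeR of 0.072. GPC1 had a log2 fold change of -0.20 and an adjusted p of 0.26.

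HPSE was the one of the 4 remodelling enzymes that passed the test (25%, beside 11.2% of all genes tested). Heparanase (chr4:83292461-83335153), which cuts heparan sulfate chains, had 20.0, 18.8 and 20.8 CPM in vitamin C wells, against 15.2, 14.0 and 14.9 CPM in control wells. The groups did not overlap, and the log2 fold change was 0.43 (SE 0.0769, adjusted p = 0.0027). CEMIP, which takes part in hyaluronan breakdown, had 197, 209.8 and 189 CPM with vitamin C, against 222, 211 and 208 CPM in control, and HTRA1, a secreted serine protease, had 164, 174 and 185 CPM with vitamin C, against 188, 181 and 196 CPM in control. Their ranges overlapped, with adjusted p-values of 0.2 and 0.19. BMP1, the procollagen C-proteinase that also cleaves the precursors of other matrix proteins, averaged 21.2 ± 0.421 CPM in treated wells and 23.3 ± 2.31 CPM in control wells (SD, n = 3 each). Its groups did not overlap, at an adjusted p from edgeR of 0.28.

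**Figure D4:**
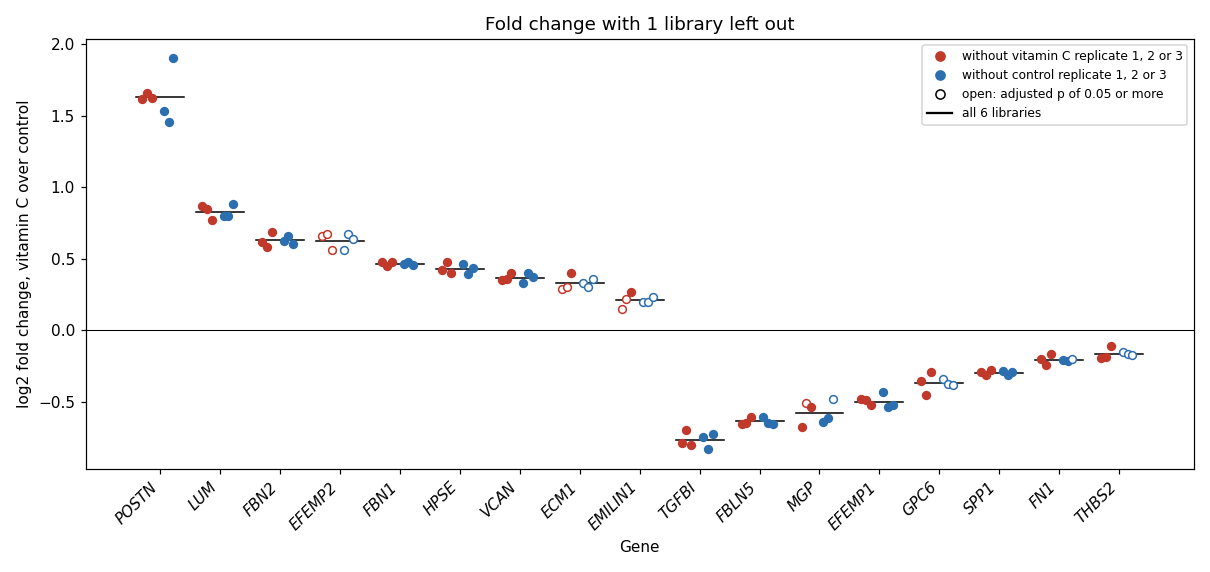
Log2 fold change between vitamin C and control (positive: higher with vitamin C) for the 17 called matrix genes with 1 library left out at a time, red points without a vitamin C library and blue points without a control library. Filled points kept an adjusted p under 0.05, open points did not, and the black line is the value from all 6 libraries. Directions held in every fit, and 10 genes kept filled points throughout.

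All 17 called genes kept their direction in the 6 fits that left out 1 library, and 10 of them kept their call in each: POSTN, LUM, FBN2, FBN1, HPSE, VCAN, TGFBI, FBLN5, EFEMP1 and SPP1. The other 7 (THBS2, FN1, MGP, ECM1, EFEMP2, EMILIN1 and GPC6) lost it at least once. The number called among all genes also shrank in most of these fits, to 964 at the least, against 1829 from all libraries.

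The 16 matrix genes that were not tested had at most 13 reads in any library. Beside HAPLN1 and the 5 small proteoglycans, they were the neural tenascin TNR, vitronectin (VTN), FBLN1, FBLN2, elastin (ELN), MFAP4, neurocan (NCAN), aggrecan (ACAN), GPC3 and GPC4. Summed over 3 libraries, they had 1 to 22 reads each in vitamin C wells and 0 to 17 in control wells. TNR had 3, 3 and 9 reads with vitamin C, against 2, 2 and 0 in control. FBLN2 had 1 read in all with vitamin C and 11 in control. With no filter on low counts all 53 genes were tested, and 0 of these 16 passed edgeR's test, with an adjusted p of 0.29 or more, while 2 had an unadjusted p under 0.05 (FBLN2, 0.027, and TNR, 0.032). A count of 0 in a library allows for up to 3 reads. Elastin itself, the core of the fibres that fibrillins, fibulins and emilins serve, had 10 reads in all with vitamin C and 7 in control, while fibrillin-2 was at 70.9 CPM or more in every library.

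Other matrix glycoproteins and proteoglycans outside the 53 were called in smaller numbers. Of 60 such genes, 32 were tested, with 4 higher and 2 lower (18.8%, beside 11.2% of all genes), at a median log2 fold change of 0.05. IGSF10, an immunoglobulin-domain matrix protein, had a log2 fold change of 1.41 (SE 0.212, adjusted p = 0.00081) and SRGN, serglycin, the proteoglycan of secretory granules, 0.78 (SE 0.116, adjusted p = 0.00072). CTHRC1, a secreted collagen-repeat protein, rose by 0.50 (adjusted p = 0.00016) and the integrin ligand EDIL3 by 0.47 (adjusted p = 0.00082). PTPRZ1, a chondroitin sulfate proteoglycan phosphatase that binds tenascin, had 87.0, 83.5 and 76.0 CPM in treated wells, against 128, 124 and 129 CPM in control wells. Its fall by 0.63 on the log2 scale (adjusted p = 1.1e-05) had no overlap between groups. PXDN, peroxidasin, which crosslinks collagen IV, had 311, 308 and 271 CPM with vitamin C, against 368, 369.6 and 362 CPM in control (adjusted p from edgeR = 0.0023).

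Genes that build or trim the sugar chains of proteoglycans numbered 54, of which 41 were tested. Of the 41, 5 were higher and 3 lower (19.5%, beside 11.2% of all genes and 13.4% of protein-coding genes tested). The median log2 fold change of the 41 was -0.02. The 5 higher genes were DSE (0.44, adjusted p = 0.00085), the epimerase that turns chondroitin into dermatan sulfate, PAPSS2 (0.43, adjusted p = 0.00023), which makes the sulfate donor, the chondroitin sulfotransferase CHST11 (0.37, adjusted p = 0.00067), UGDH (0.30, adjusted p = 0.0077), which supplies UDP-glucuronic acid, and EXTL2 (0.20, adjusted p = 0.038). The 3 lower genes were the heparan sulfotransferase HS3ST1 (-0.89, adjusted p = 0.0015), the uronyl sulfotransferase UST (-0.41, adjusted p = 0.0085) and the dermatan sulfotransferase CHST14 (-0.34, adjusted p = 0.048). Among the tested genes were the heparan sulfate polymerases EXT1 and EXT2, which differed by log2 fold changes of -0.01 and 0.02 and did not pass. CHST14 lost its call in 9 and EXTL2 in 5 of the 14 alternatives.

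**Figure D5:**
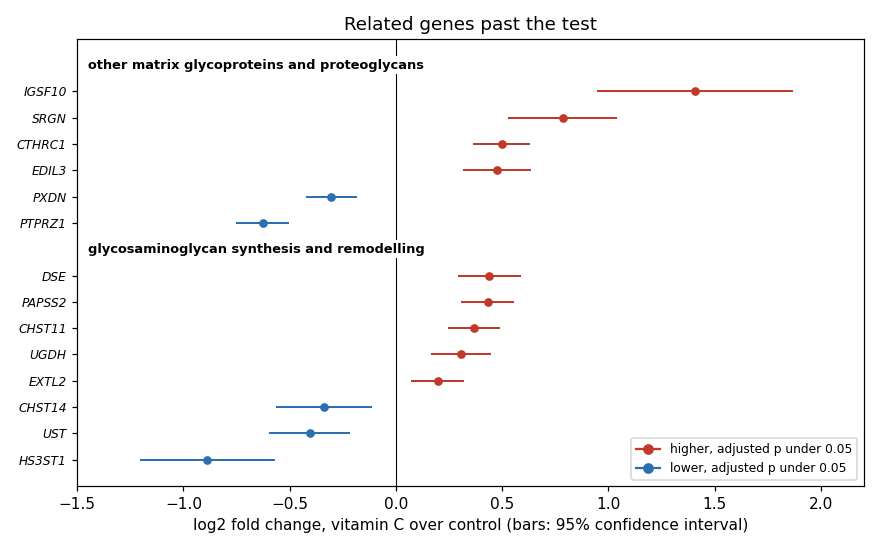
Log2 fold change (vitamin C against control) with its 95% confidence interval for the 14 called genes of the lists of other matrix glycoproteins and proteoglycans and of glycosaminoglycan synthesis and remodelling. Red genes were higher and blue genes lower. IGSF10 lies furthest to the right at 1.41 and HS3ST1 furthest to the left at -0.89.

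The libraries held 20944956 to 32549362 counted reads in vitamin C wells and 16248869 to 41884588 in control wells. All 8 melanoma and melanocyte markers were tested, led by DCT, MITF and S100B. The 8 markers summed to 2372 to 2501 CPM in vitamin C wells and 2551 to 2666 CPM in control wells. Of the 8, 5 passed (62.5%, beside 11.2% of all genes tested), with 4 higher and 1 lower. The melanosome protein MLANA had 15.6, 15.9 and 14.6 CPM in vitamin C wells, against 1.22, 1.60 and 1.79 CPM in control wells, a log2 fold change of 3.39 (adjusted p = 9e-09). PMEL (0.73), TYR (0.29) and PRAME (0.24) were also higher, and DCT, the marker with the most reads, was lower (-0.30), at 1233, 1282 and 1185 CPM with vitamin C and 1547, 1464 and 1533 CPM in control. Of 8 fibroblast markers, 4 were tested and 2 were higher (50%, beside 11.2% of all genes tested). These were PDGFRB (log2 fold change 1.60, adjusted p from edgeR = 0.00069) and COL3A1 (0.76, adjusted p from edgeR = 0.019). The 2 other tested fibroblast markers had log2 fold changes below 0 and did not pass. The 8 markers summed to 10.9 to 13.0 CPM with vitamin C and 8.04 to 11.1 CPM in control. Of the other fibroblast markers, THY1, PDPN and TCF21 had at most 5 reads in any library, and COL1A2 had 3 to 23. Both tested endothelial markers of 4 were called higher by edgeR (100%, beside 11.2% of all genes tested), PECAM1 by 1.61 and TIE1 by 1.25. DESeq2 also called only 1 of the 2. The 4 markers summed to 4.30 to 5.25 CPM with vitamin C and 1.75 to 1.98 CPM in control, and CDH5 had at most 5 reads. Of 6 blood cell markers, 1 was tested and did not pass, with sums of 0.638 to 0.859 CPM with vitamin C and 0.576 to 1.41 CPM in control. Of 5 epithelial markers, 2 were tested and 1 passed (50%, beside 11.2% of all genes tested). This was KRT18, which was lower (-0.21, adjusted p from edgeR = 0.026). The 5 markers summed to 53.9 to 57.1 CPM with vitamin C and 61.7 to 66.1 CPM in control. The part of these marker differences in the matrix results, those of low-level genes such as POSTN and DCN included, was not tested.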

How the data were processed

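The deposited values are whole-number read counts per gene, without normalization. According to the paper, ribosomal RNA was depleted, paired ends were sequenced, and reads were aligned with STAR and counted with HTSeq on GENCODE v19. The submitters' processing notes instead name hg38, with Trim Galore and CASAVA 1.4. Which annotation the deposited counts were made on is not settled by these sources. The strand setting of the counting is not given in the sources used. Symbols, coordinates (GRCh38) and exon lengths were taken from GENCODE 29, which held 57055 of the 60675 identifiers. All 6 single-sample tables equalled the table of all samples. No replicate pair was within sampling noise (chi-square per degree of freedom 2.75 to 11.0). The highest values, 10.7 and 11.0, came from the pairs with vitamin C replicate 3, and the other pairs reached at most 6.65.

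The counts were tested by edgeR 4.0.16 in R 4.3.3 (filterByExpr, TMM, quasi-likelihood test), with Benjamini-Hochberg adjustment over the 16353 genes kept and a threshold of 0.05. CPM used the TMM factors. The SE is the log2 fold change over the square root of F, and 95% intervals used the t distribution. The fits were tested on simulated counts with known changes. Alternatives were RLE, upper-quartile and library-size scaling, no filter, at least 10 counts in every library, DESeq2 1.42.0, limma-voom (limma 3.58.1), a replicate block and leaving out each library. Intervals cover the spread between wells only.

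Every one of the 53 genes was described, with values per library for called genes and for others averaging at least 50 CPM, and DCN was added after its values were seen. From the other lists, called genes (up to 6 per direction) and the markers with the highest CPM were named, with the called markers added after their values were seen. The members and lists were chosen with earlier results of these data known.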

Additional observations from a re-analysis of the deposited data

How the results depend on the processing

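The direction of every called matrix gene held in all alternatives, and over the genes named from the 3 lists, none of 407 values under the alternatives that used all libraries changed sign, 10 lost a call and 3 gained one. With 1 library left out, 34 of 306 values lost a call, 3 gained one and 6 changed sign, all 6 in genes that had not passed. Their log2 fold changes ranged from -0.12 to 0.033 for EMILIN2, -0.0014 to 0.057 for LTBP3, -0.066 to 0.037 for LTBP4, -0.36 to 0.086 for BCAN and -0.20 to 0.046 for HAPLN3. With 1 library left out, called genes numbered 549 to 1184 higher and 411 to 911 lower among all genes, 6 to 8 higher and 4 to 11 lower among the 53 matrix genes, and 4 to 5 higher and 2 to 5 lower among the glycosaminoglycan genes. These fits hold fewer samples. Leaving out control replicate 3 gave the fewest matrix genes (10), and leaving out vitamin C replicate 3 gave the most (19, with TNC, AGRN and HTRA1 added). TNC was also called under upper-quartile scaling, DESeq2 and limma-voom.

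Deviations of same-numbered wells correlated at 0.12, -0.02 and 0.09, and those of wells with different numbers at -0.18 to 0.11. With 3 wells per group, these values cannot settle whether same-numbered wells were paired. With the replicate number as a block, edgeR called 7 matrix genes higher and 8 lower, without ECM1 and EFEMP2, and 1913 genes in all.

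The 16 matrix genes with at most 13 reads in any library entered only the fit with no filter on low counts, where 0 passed edgeR's test and 2 had an unadjusted p under 0.05.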
